A study of Mus musculus with 12 samples.

Results

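Genes whose transcript level moved with GLUT3 in Th17 cells but not in the same way in Th1 cells, or the other way round, are described here: 10 genes out of the 45703 in the deposited tables, found by their symbols. The genes were Ccn3, Gja5, Gdpd2, Lrrc31, Krt83, Ccnd1, Tpm2, Cyp11a1, Fhl2 and Tubb3. They had been picked for their genotype differences and for the contrast of those differences between the lineages in these same libraries. Their genotype differences are therefore given as values with standard errors and without a test.

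RNA was measured in 12 libraries, 3 in each of 4 groups: GLUT3-deficient Th17, wild-type Th17, GLUT3-deficient Th1 and wild-type Th1 cells. The deficient mice are labelled Slc2a3-fl/fl Cd4-cre, a genotype in which Cre made under Cd4 regulatory elements recombines the floxed Slc2a3 gene in T cells that pass through a Cd4-expressing stage in the thymus. The labels call the other genotype wild type and do not say whether it carried floxed alleles or Cre. All mice were C57BL/6. Naive T cells were stimulated through CD3 and CD28 and held for 3 days in culture with cytokines that polarize towards Th1 or Th17, and the source is labelled CD4+ T cells. The labels do not say whether the replicates were separate mice or separate cultures, so every p-value below reflects only how far these particular libraries scatter, part of which may be technical.

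GLUT3 is a glucose transporter of high affinity that activated T cells place in the plasma membrane beside GLUT1. Glucose taken up in this way feeds glycolysis and, through mitochondrial citrate, the supply of acetyl-CoA for histone acetylation and lipid synthesis. Th17 cells depend on the transcription factor RORγt and make interleukin 17, and Th1 cells depend on T-bet and make interferon gamma. The 10 genes belong to no common pathway. They code for a matricellular protein, a gap junction channel, a membrane phosphodiesterase, a leucine-rich repeat protein and a hair keratin, and for a cyclin, a tropomyosin, a steroidogenic enzyme, a LIM domain protein and a tubulin.

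The libraries held 16596283 to 28496606 recovered reads each, and Slc2a3 itself stood at 3.30 to 18.7 TPM in deficient Th17 against 44.6 to 379 TPM in wild-type Th17 libraries, and at 4.49 to 7.97 TPM in deficient Th1 against 64.7 to 398 TPM in wild-type Th1 libraries. TPM, a share of all transcripts, is a level corrected for exon length and brought to an equal sum in each library. Deficient Th17 replicate 2 stood apart. Its median absolute log2 difference from the rest of its group was 0.62, against 0.14 to 0.42 in the other 11 libraries, so the deficient Th17 means of Gja5, Lrrc31, Krt83, Fhl2 and Tubb3, which it moved most among the genes judged there, are also given without it. A lineage was called too low to judge for a gene where fewer than 3 of its 6 libraries reached 1 TPM.

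By that criterion 8 of the 10 genes could be judged in Th17 cells, 5 in Th1 cells and 3 in both. Ccn3, Gja5, Gdpd2, Lrrc31 and Krt83 were too low in Th1 cells, and Ccnd1 and Tpm2 were too low in Th17 cells. In Th17 cells 4 of the 8 judged genes had every deficient library above every wild-type library and 4 had every deficient library below. Of all genes tested in Th17 cells, 36.7% had non-overlapping groups, 18.5% with deficient higher and 18.2% lower. In Th1 cells all 5 judged genes had every deficient library above every wild-type library, beside 26.3% of all tested genes with this direction and 47.1% in either. Gdpd2 and Lrrc31 in Th17 cells and Ccnd1, Tpm2 and Tubb3 in Th1 cells reached 1 TPM in the 3 deficient libraries only. For them the criterion itself sets the groups apart. The genes were also chosen on these contrasts, so nothing is read from these counts. For Cyp11a1, Fhl2 and Tubb3, the 3 genes judged in both lineages, the groups were apart in both and in opposite directions. Whether these 3 genes respond in both lineages was not tested.

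Promoter sequences were found in RefSeq (GRCm38.p6) for 7 of the 10 genes; Ccn3, Ccnd1 and Krt83 had no entry. The stretches of 250 bases upstream of the annotated start are printed for Gja5 and Lrrc31, which were high in deficient Th17 cells, for Tpm2 and Tubb3, which were high in deficient Th1 cells, and for Cyp11a1, which was higher in deficient Th1 and lower in deficient Th17 cells. They show the contrast in base composition among genes of the set. Each is written 5′ to 3′ on the strand of the gene, and capitals mark matches to the motifs named after them. The regions are chr3:97032152-97032401 on the plus strand for Gja5, chr3:30699844-30700093 on the minus strand for Lrrc31, chr4:43523555-43523804 on the minus strand for Tpm2, chr8:123411303-123411552 on the plus strand for Tubb3 and chr9:57997774-57998023 on the plus strand for Cyp11a1.
Gja5: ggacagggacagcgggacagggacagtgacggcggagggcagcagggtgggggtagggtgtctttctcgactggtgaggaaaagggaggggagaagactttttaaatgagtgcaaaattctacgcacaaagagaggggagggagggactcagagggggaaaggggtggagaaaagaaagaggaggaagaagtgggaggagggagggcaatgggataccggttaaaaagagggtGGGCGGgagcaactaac
Lrrc31: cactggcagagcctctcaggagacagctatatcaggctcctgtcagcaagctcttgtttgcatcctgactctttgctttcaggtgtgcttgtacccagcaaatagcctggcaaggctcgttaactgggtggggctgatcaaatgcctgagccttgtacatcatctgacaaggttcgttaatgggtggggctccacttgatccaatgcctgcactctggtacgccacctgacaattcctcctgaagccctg
Tpm2: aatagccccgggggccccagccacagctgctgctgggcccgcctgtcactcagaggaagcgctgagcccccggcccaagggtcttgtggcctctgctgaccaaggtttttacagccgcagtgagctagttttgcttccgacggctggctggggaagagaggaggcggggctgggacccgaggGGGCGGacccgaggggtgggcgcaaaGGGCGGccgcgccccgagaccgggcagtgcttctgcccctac
Tubb3: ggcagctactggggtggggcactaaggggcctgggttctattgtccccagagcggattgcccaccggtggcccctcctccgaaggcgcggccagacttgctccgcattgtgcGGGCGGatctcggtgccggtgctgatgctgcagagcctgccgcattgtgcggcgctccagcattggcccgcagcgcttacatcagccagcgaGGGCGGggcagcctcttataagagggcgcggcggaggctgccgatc
Cyp11a1: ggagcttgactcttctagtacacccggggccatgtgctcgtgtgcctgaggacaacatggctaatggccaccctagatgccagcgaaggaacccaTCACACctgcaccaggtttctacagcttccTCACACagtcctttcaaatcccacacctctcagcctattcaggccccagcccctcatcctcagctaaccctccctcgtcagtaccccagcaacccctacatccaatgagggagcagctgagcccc

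The Tpm2 and Tubb3 stretches were 69.6% and 68.0% G or C and held 17 and 21 CpG dinucleotides. The Gja5 and Lrrc31 stretches were 56.4% and 52.8% G or C with 7 and 3 CpG dinucleotides, and the Cyp11a1 stretch was 57.6% with 4. The medians over all 32851 promoters in the table were 52.4% and 6. Of the other promoters of these genes, the second of Cyp11a1 was 50.4% G or C with 1 CpG dinucleotide. Those of Fhl2 held 21 and 1 CpG dinucleotides and those of Gdpd2 held 2 and 7, so composition varied between promoters of a single gene. For the printed Gja5 and Cyp11a1 stretches, the bases that follow did not begin a GENCODE transcript of the gene. For the second Cyp11a1 promoter they did. The stretches were searched on both strands for 8 motifs: the GC box GGGCGG, the T-box half-site TCACAC, the ROR half-site AGGTCA, the TATA box TATAAA, the AP-1 site TGANTCA, the GAS element TTCNNNGAA, the E-box CACGTG and the CRE TGACGTCA. The GC box was found in promoters of Gja5, Tpm2, Tubb3 and Fhl2, and 32.7% of all promoters hold it. TCACAC was found in promoters of Cyp11a1 and Fhl2, and 12.3% of all promoters hold it. AGGTCA was found in the second promoter of Cyp11a1 (14.0% of all), and TATAAA in promoters of Fhl2 and Gdpd2 (12.4% of all). None of these 10 promoters held the AP-1 site, the GAS element, the E-box or the CRE, which occur in 6.7%, 7.0%, 6.0% and 1.5% of all promoters, and no matches overlapped each other. A match is a string of letters and shows no binding.

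Ccn3 (gene ID 18133, chromosome 15, 54745910 to 54753762, plus strand) codes for a secreted matricellular protein of the CCN family, long known as NOV, that binds integrins. It stood at 95.9, 73.4 and 70.6 TPM in deficient Th17 libraries and at 3.22, 3.82 and 3.96 TPM in wild-type Th17 libraries. The groups lay far apart, and no deficient library came near a wild-type one. The means were 80.0 ± 13.9 and 3.67 ± 0.39 TPM (SD, n = 3 each), a ratio of 21.8 and a log2(TPM + 1) difference of 4.11 (SE 0.16). Among genes at a mean of 1 TPM or more, Ccn3 stood above 83.2% in deficient Th17 cells and above 23.9% in wild-type Th17 cells.

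In Th1 cells Ccn3 was too low to judge, with 18, 18 and 13 reads in deficient and 0, 0 and 5 reads in wild-type libraries. Even so, every deficient Th1 library held more Ccn3 reads than any wild-type one. The difference between the lineages therefore depends on the scale. On log2(TPM + 1) the Th17 difference exceeded the Th1 difference by 3.50, with a pseudocount of 0.1 TPM by 2.11, and on log2 of the recovered reads scaled by library size by 0.60. None of the 75-base windows of the Ccn3 transcripts occurs in a transcript of another gene.

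Gja5 (gene ID 14613, chromosome 3, 97032402 to 97053634, plus strand) codes for connexin 40, a gap junction channel protein known from arterial endothelium and the atria of the heart. Its levels were 27.0, 53.0 and 28.4 TPM in deficient Th17 libraries, against 1.56, 1.99 and 1.95 TPM in wild-type Th17 libraries. All 3 deficient libraries were above all wild-type ones, and deficient replicate 2 was the highest. The mean was 36.1 ± 14.6 TPM in deficient and 1.84 ± 0.24 TPM in wild-type Th17 cells (SD, n = 3 each), 19.7 times higher in deficient cells, with a log2 difference of 3.65 (SE 0.31). Without replicate 2 the deficient mean was 27.7 TPM.

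In the 6 Th1 libraries together Gja5 had 1 read, which fell in a deficient library. A count of 3 reads in each library of a group would correspond to a mean of 0.0880 TPM in deficient and 0.0915 TPM in wild-type Th1 cells. Both groups stood below this floor, which covers counting error only. Of the Gja5 windows of 75 bases, 14.0% also occur in transcripts of other genes, chiefly Zfp697.

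Gdpd2 (gene ID 71584, chromosome X, 100729836 to 100738901, plus strand) codes for a membrane glycerophosphodiester phosphodiesterase, GDE3, studied in osteoblasts. It reached 11.7, 6.87 and 5.86 TPM in deficient Th17 libraries and 0.329, 0.0629 and 0.166 TPM in wild-type Th17 libraries. These values rest on 429, 134 and 262 reads in deficient and on 10, 2 and 6 reads in wild-type libraries. Transcripts of Gdpd2 were thus present throughout the deficient Th17 group and near the limit of detection in wild type. The log2(TPM + 1) difference was 2.90 (SE 0.29). In Th1 cells all 6 libraries had 0 Gdpd2 reads. A count of 3 reads in each library would correspond to a mean of 0.0986 TPM in deficient and 0.102 TPM in wild-type cells.

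Lrrc31 (gene ID 320352, chromosome 3, 30678554 to 30699843, minus strand) codes for a leucine-rich repeat protein described in human epithelium. Deficient Th17 libraries had 5.29, 3.56 and 5.13 TPM, or 145, 52 and 172 reads, and wild-type Th17 libraries had 0, 0.0840 and 0.111 TPM, or 0, 2 and 3 reads. Each deficient library exceeded each wild-type library many times over. The log2 difference was 2.40 (SE 0.16), and a pseudocount of 5 TPM lowered it to 0.93 while a pseudocount of 0.1 TPM raised it to 4.90. The deficient Th17 mean was 4.66 TPM, and 5.21 TPM without replicate 2. In Th1 cells there were 6, 0 and 0 reads in deficient and 0, 1 and 0 reads in wild-type libraries.

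Genes beside Lrrc31 had reads in the same libraries. Gm15462 overlaps Lrrc31, and 6.5% of the Lrrc31 windows of 75 bases lie in its transcripts; the libraries do not mark strand, so reads there cannot be assigned to either gene. Summed over 3 libraries, Gm15462 had 105 reads in deficient and 5 in wild-type Th17 cells, Lrrc34 had 56 and 0, and Lrriq4 had 18 and 0. Each of these neighbours had at most 1 read per group in Th1 cells. Like Lrrc31, they were thus seen in deficient Th17 cells and hardly elsewhere, at read numbers below the level at which genes were tested.

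Krt83 (gene ID 100126226, chromosome 15, 101485130 to 101491512, minus strand) codes for a hard keratin of the hair shaft and was lower in deficient Th17 cells, unlike Ccn3, Gja5, Gdpd2 and Lrrc31. It stood at 1.94, 0.912 and 1.77 TPM in deficient and at 32.3, 18.1 and 15.4 TPM in wild-type Th17 libraries. No deficient library came close to the lowest wild-type one. The means were 1.54 ± 0.55 and 21.9 ± 9.07 TPM (SD, n = 3 each), 14.2 times higher in wild type, and the log2 difference was -3.13 (SE 0.37). Without replicate 2 the deficient mean was 1.86 TPM. In Th1 cells the deficient libraries had 13, 2 and 3 reads and the wild-type libraries 2, 3 and 0, and the groups overlapped.

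Krt83 made up 21.8% ± 4.9 of all keratin TPM in deficient and 58.2% ± 3.2 in wild-type Th17 cells (SD, n = 3 each, 35 keratin genes). Its near copies Krt81 and Krt86 share 11.9% of the Krt83 windows, so some reads could belong to any of them. They were much lower: Krt81 had 8 reads in deficient and 40 in wild-type Th17 cells over 3 libraries, Krt86 had 5 and 27, and the neighbouring Krt87 had 6 and 31. All 3 had 0 reads in every Th1 library. The markers of epithelium and hair follicle Krt8, Krt31 and Krt35 were listed at 0 in all 12 libraries. The summed level of the 8 markers of that list was 6.34 to 11.2 TPM in deficient and 5.93 to 18.2 TPM in wild-type Th17 libraries. Epcam, 1 of the 2 that could be tested, was higher in deficient Th17 cells (log2 difference 2.22, limma adjusted p = 0.00857). Its call was kept in 1 of 3 fits without 1 library, and fits without a deficient library did not test it. The part of such cells in the Krt83 difference was not tested.

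**Figure D1:**
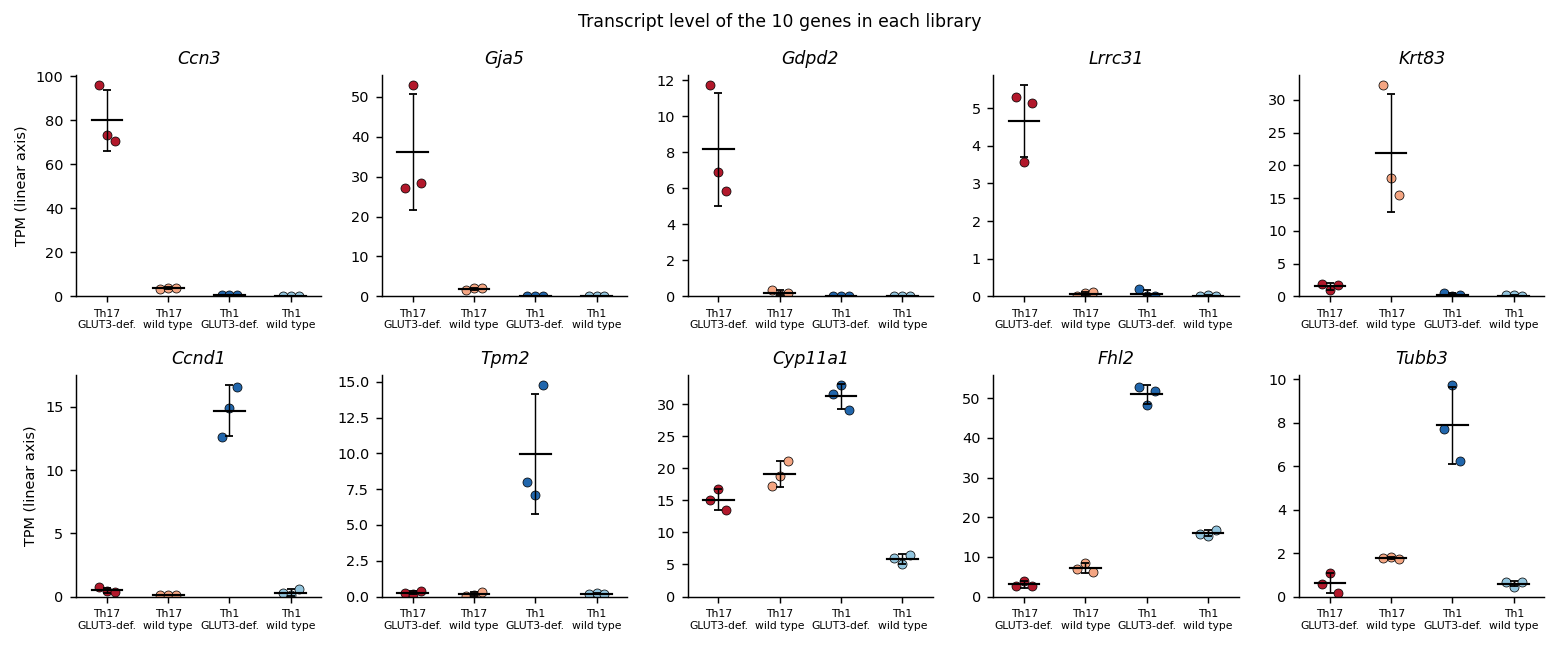
Level of each gene in TPM on a linear axis that starts at 0, with 1 point per library, a horizontal bar at the mean and whiskers of 1 SD (n = 3 per group). The upper row holds the 5 genes too low to judge in Th1 cells, and Ccn3 at 70.6 to 95.9 TPM in deficient Th17 cells is the highest of all; the lower row shows the 5 genes that were high in deficient Th1 cells.

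Ccnd1 (gene ID 12443, chromosome 7, 144929931 to 144939831, minus strand) codes for cyclin D1, which activates CDK4 and CDK6 in early cell cycle; lymphocytes are known to use cyclins D2 and D3 in its place. In deficient Th1 libraries it had 12.6, 14.9 and 16.6 TPM, and in wild-type Th1 libraries 0.248, 0.0921 and 0.611 TPM. The deficient values stood close together and all were above the wild-type ones. The means were 14.7 ± 1.99 and 0.317 ± 0.266 TPM (SD, n = 3 each), a ratio of 46.4 and a log2 difference of 3.59 (SE 0.20).

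In Th17 cells Ccnd1 was too low to judge, at 35, 11 and 22 reads in deficient and 6, 4 and 7 in wild-type libraries. The deficient Th17 libraries nevertheless held more reads than the wild-type ones, without overlap, at 0.371 to 0.721 TPM against 0.0948 to 0.149 TPM. The direction in Th17 cells was thus that of Th1 cells at a far lower level. Ccnd1 overlaps LTO1 on the opposite strand, and 20.6% of its windows occur in LTO1 transcripts. LTO1 itself averaged 4.27 TPM in deficient and 3.54 TPM in wild-type Th1 cells and did not pass the test (log2 difference 0.22, limma adjusted p = 0.339).

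Tpm2 (gene ID 22004, chromosome 4, 43513726 to 43523583, minus strand) codes for beta-tropomyosin, which winds along actin filaments and is best known from muscle. Its levels were 8.01, 7.11 and 14.8 TPM in deficient and 0.186, 0.233 and 0.149 TPM in wild-type Th1 libraries. Every deficient Th1 library was far above wild type, and replicate 3 was the highest. The mean was 9.96 ± 4.18 TPM in deficient against 0.189 ± 0.042 TPM in wild-type Th1 cells (SD, n = 3 each), with a log2 difference of 3.14 (SE 0.30). In Th17 cells 11, 4 and 20 reads in deficient and 2, 3 and 14 reads in wild-type libraries overlapped.

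**Figure D2:**
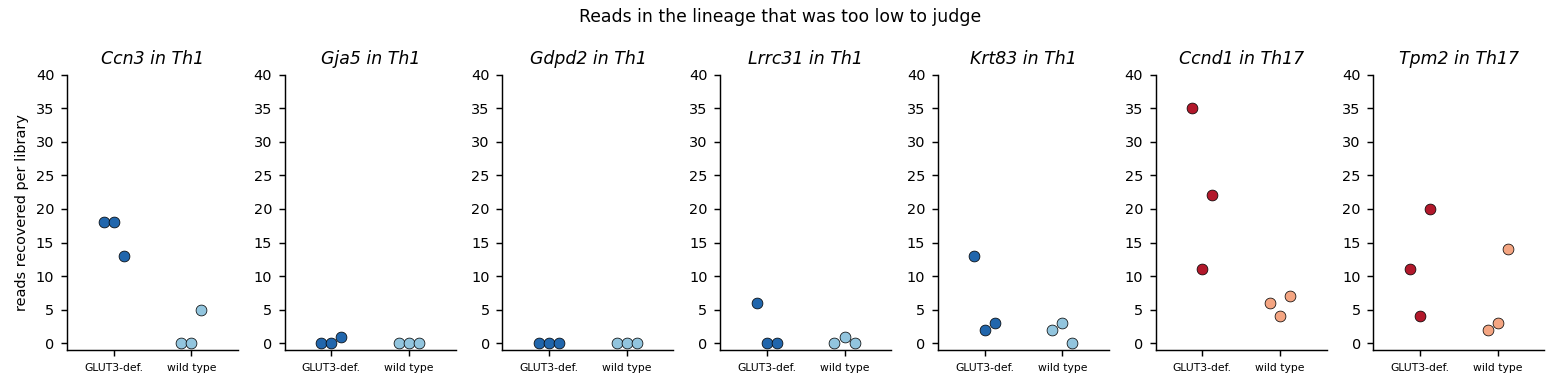
Recovered reads per library, on a linear axis, for the 7 genes in the lineage where they were too low to judge, with 1 point per library and GLUT3-deficient left of wild type. Ccn3 in Th1 cells (13 to 18 reads against 0 to 5) and Ccnd1 in Th17 cells (11 to 35 against 4 to 7) had groups that did not overlap, and Gdpd2 had 0 reads throughout.

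Cyp11a1 (gene ID 13070, chromosome 9, 57998024 to 58027031, plus strand) codes for the mitochondrial enzyme that cleaves the side chain of cholesterol to give pregnenolone, the first step of steroid synthesis, and is known in T cells mainly from the Th2 type. In Th17 cells it was lower without GLUT3: 15.1, 16.7 and 13.5 TPM in deficient and 17.3, 18.8 and 21.2 TPM in wild-type libraries. In Th1 cells it was higher without GLUT3: 31.6, 33.0 and 29.2 TPM in deficient and 6.00, 5.01 and 6.51 TPM in wild-type libraries. The groups did not overlap in either lineage, although in Th17 cells the highest deficient and the lowest wild-type library were close. The log2 difference was -0.32 (SE 0.12) in Th17 and 2.24 (SE 0.11) in Th1 cells. The limma fit gave a standard error of 0.23 for the Th17 and 0.16 for the Th1 difference. The order of the 4 groups, each apart from the next, was deficient Th1, wild-type Th17, deficient Th17 and wild-type Th1.

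Fhl2 (gene ID 14200, chromosome 1, 43123071 to 43198343, minus strand) codes for a LIM-only protein that links transcription factors and adhesion complexes and is abundant in heart. It had 2.67, 4.00 and 2.54 TPM in deficient and 6.86, 8.44 and 6.08 TPM in wild-type Th17 libraries. In Th1 cells it had 52.9, 48.3 and 51.7 TPM in deficient and 15.8, 15.3 and 16.7 TPM in wild-type libraries. All deficient libraries were lower in Th17 cells and all were higher in Th1 cells, with no overlap. The log2 difference was -1.005 (SE 0.20) in Th17 and 1.62 (SE 0.05) in Th1 cells, and the level in Th1 cells exceeded that in Th17 cells in both genotypes. The deficient Th17 mean was 3.07 TPM, and 2.61 TPM without replicate 2.

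Tubb3 (gene ID 22152, chromosome 8, 123411553 to 123422015, plus strand) codes for class III beta-tubulin, a neuronal tubulin. Deficient Th17 libraries had 0.580, 1.09 and 0.182 TPM and wild-type Th17 libraries 1.77, 1.80 and 1.72 TPM, while deficient Th1 libraries had 7.69, 9.72 and 6.21 TPM and wild-type Th1 libraries 0.658, 0.449 and 0.691 TPM. The deficient Th17 values were scattered below those of wild type, which were nearly equal. These Th17 values rest on 13, 13 and 5 reads in deficient and 33, 35 and 38 reads in wild-type libraries. The deficient Th17 mean was 0.617 TPM, and 0.381 TPM without replicate 2. The log2 difference was -0.81 (SE 0.24) in Th17 and 2.46 (SE 0.18) in Th1 cells. Its size depended on the scale: a pseudocount of 5 TPM gave -0.27 in Th17 and 1.19 in Th1 cells, and voom on the recovered reads gave -1.99 and 3.57. In deficient cells Tubb3 was thus lower in Th17 than in Th1 cells, and in wild type it was higher in Th17 than in Th1 cells, without overlap in either genotype.

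**Figure D3:**
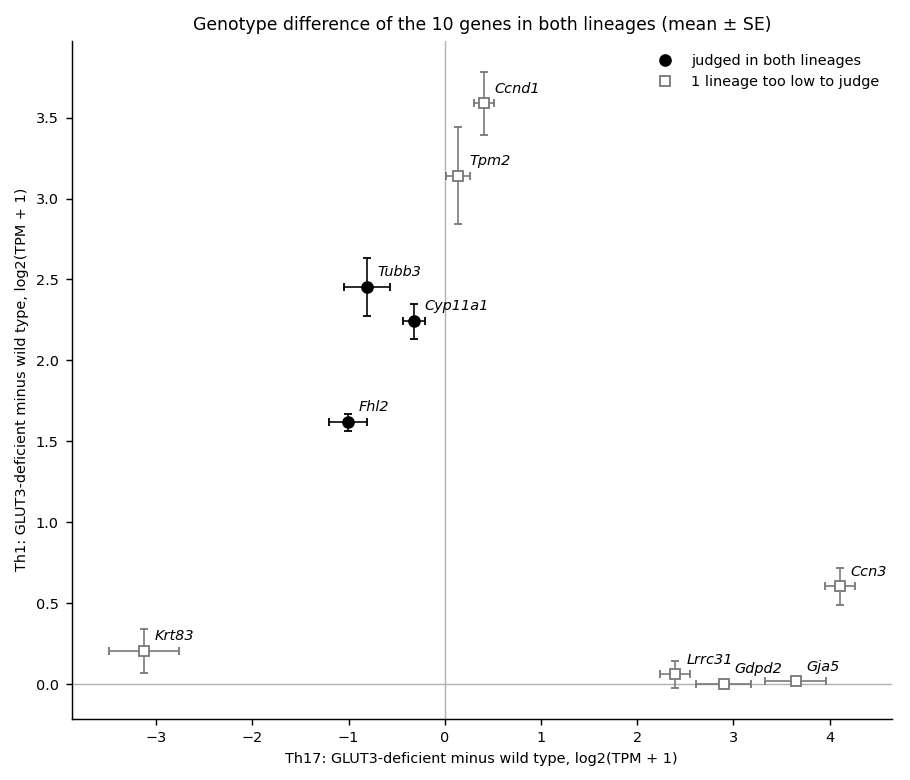
Difference between GLUT3-deficient and wild-type means on the log2(TPM + 1) scale, with Th17 cells on the horizontal and Th1 cells on the vertical axis; whiskers are standard errors from 3 libraries per group. Filled points are the 3 genes judged in both lineages, and all lie at negative Th17 and positive Th1 values (Fhl2 at -1.005 and 1.62); open squares had a lineage too low to judge.

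The 4 genes higher in deficient Th17 cells followed each other closely across the 12 libraries. Pearson's r on log2(TPM + 1) was 0.94 to 0.99 among Ccn3, Gja5, Gdpd2 and Lrrc31, which all have their high values in the same 3 libraries. Ccnd1 and Tpm2 correlated at 0.98, Ccnd1 and Tubb3 at 0.89, and Cyp11a1 and Fhl2, which differ in their Th17 levels, at 0.30. These coefficients are descriptions of libraries that share group and depth. Among 9332 genes with a group mean of at least 5 TPM, the gene most like Gja5 was Dab2, an endocytic adaptor (r = 0.99), and Ccn3 and Gja5 were among each other's 3 closest. Impg2 was among the 3 genes closest to Gdpd2 and to Lrrc31 (r = 0.96 and 0.97).

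Il10, the gene of the regulatory cytokine interleukin 10, was among the 3 genes closest to Ccnd1 (r = 0.97), Tpm2 (r = 0.96) and Tubb3 (r = 0.92). It stood at 45.5, 47.5 and 56.5 TPM in deficient Th17 and 56.4, 57.5 and 56.9 TPM in wild-type Th17 libraries. The Th1 values were 567, 462 and 357 TPM in deficient and 60.1, 58.1 and 67.1 TPM in wild-type libraries. Deficient Th1 cells were thus set apart from the other 3 groups for Il10 as for Ccnd1 and Tpm2. The genes closest to Fhl2 included Nr4a2, an orphan nuclear receptor induced by antigen receptor signals (r = 0.96), and those closest to Krt83 included Cd86 and Lmna (r = 0.94 each). The closest to Cyp11a1, Ccdc130, reached 0.89.

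The relatives of the 10 genes were examined next, over 12 lists of families and pathways. In Th17 cells 9 of 91 tested relatives passed the limma test on log2(TPM + 1) with an adjusted p under 0.05, beside 7.30% of all tested genes (4.60% higher and 2.70% lower), and in Th1 cells 38 of 83 passed, beside 31.3% of all (17.6% higher and 13.7% lower). The interaction of genotype and lineage was called by limma for 0 of 97 relatives, beside 0.638% of all genes. Of the 97, 22 had an unadjusted limma p under 0.05, beside 930 of all 14579 genes tested. Voom on recovered reads called 2, Ccr4 and Fhl3. The contrast between the lineages was thus not called in any relative by limma, though low unadjusted p-values were more frequent than over all genes. The lists had been chosen with earlier results of these data known, so nothing is read from this share. Of the calls on relatives, 1 of 9 in Th17 cells and 23 of 38 in Th1 cells passed in every fit that left out 1 library and still tested the gene.

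Of the D and E cyclins with their kinases and inhibitors, 3 of 19 tested rose in deficient Th17 cells and 15 of 18 rose in deficient Th1 cells, and none fell; the median log2 difference was 0.66 and 0.86, against 0.04 and 0.03 over all genes. Cyclin D3 (Ccnd3) averaged 1679 ± 655 TPM in deficient and 451 ± 67.6 TPM in wild-type Th17 cells (log2 difference 1.84, limma adjusted p = 0.0156), a call lost without deficient Th17 replicate 1 or any wild-type Th17 library (adjusted p up to 0.0904). In Th1 cells it averaged 1963 ± 112 TPM in deficient and 419 ± 48.8 TPM in wild type (log2 difference 2.23, limma adjusted p = 3.29e-05). Cyclin D2 (Ccnd2) rose in Th1 cells to 558 ± 6.06 TPM in deficient, against 294 ± 11.6 TPM in wild-type cells (log2 difference 0.92, limma adjusted p = 0.000737). Ccnd1 therefore made up 0.579% ± 0.054 of the D cyclin TPM in deficient and 0.0463% ± 0.042 in wild-type Th1 cells (SD, n = 3 each), the smallest share of the 3 D cyclins in every group.

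The list also holds inhibitors. Of these Cdkn2b and Cdkn2c passed the test in Th17 cells and Cdkn1a, Cdkn1b, Cdkn2b, Cdkn2c and Cdkn2d in Th1 cells, each higher in deficient cells. Cdkn2b, which codes for the CDK4 and CDK6 inhibitor p15, stood at 5.68 ± 1.18 TPM in deficient and 0.369 ± 0.354 TPM in wild-type Th17 cells (log2 difference 2.31, limma adjusted p = 0.0065), and at 7.03 ± 1.21 and 1.69 ± 0.12 TPM in deficient and wild-type Th1 cells (1.57, adjusted p = 0.000375). Cdkn2c, which codes for p18, rose in both lineages by log2 differences of 1.96 and 1.76 (limma adjusted p = 0.0208 and 0.00141). The Cdkn2c call in Th17 cells was lost without deficient replicate 1 or 3 or wild-type replicate 3. Cdkn1a, which codes for p21, and cyclin E2 (Ccne2) rose in Th1 cells (log2 1.10 and 1.85). Cdk6 rose there by 0.80, and E2f2 rose by 1.02. The Th1 calls of Cdkn2b, Cdkn2c, Cdkn1a, Ccne2, Cdk6 and E2f2 held in every fit without 1 library. That of Cdkn1b was lost in 4 of 6 such fits, and that of Cdkn2d without deficient replicate 1 or 2.

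Among tropomyosins, actins and actin-binding proteins, 0 of 16 rose and 1 fell in deficient Th17 cells, and 8 of 16 rose and 0 fell in deficient Th1 cells; the median log2 differences were 0.21 and 0.40. Vinculin (Vcl), which anchors actin at adhesion sites, rose in Th1 cells by 1.25 on the log2 scale (limma adjusted p = 0.00143), and Tpm4, the main tropomyosin in all groups, rose by 0.82 (adjusted p = 0.00244). Zyxin (Zyx), Tpm1 and Tpm3 rose by 1.15, 0.78 and 0.54; the Tpm3 call was lost without any deficient Th1 library, without wild-type replicate 1 or 2 and with voom. Actb rose by 0.42, a call lost without any deficient library and with the other scaling. Tpm4 averaged 747 ± 58.1 TPM in deficient and 424 ± 44.8 TPM in wild-type Th1 cells, so that Tpm2, at 1.00% ± 0.35 and 0.0337% ± 0.011 of tropomyosin TPM in these groups, stayed the least abundant of the 4 (SD, n = 3 each). In Th17 cells calponin 2 (Cnn2) fell by 0.81 on the log2 scale, a call that was lost with the replicate block (adjusted p = 0.0561) and in 5 of the 6 fits without 1 library.

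Of the other tubulins, 1 of 14 rose in deficient Th17 cells (Tuba8, log2 1.75, lost without any library except deficient replicate 2) and 3 of 14 rose in deficient Th1 cells, with none falling in either and a median log2 difference of 0.28 in both. Tuba1a rose in Th1 cells by 0.86 (limma adjusted p = 0.00587), Tubb4b by 0.92 and Tubb2a by 0.57; the Tubb4b call was lost without deficient replicate 2 or 3, and the Tubb2a call in 5 of 6 fits without 1 library. Tubb3 made up 0.423% ± 0.098 of beta-tubulin TPM in deficient and 0.0465% ± 0.015 in wild-type Th1 cells. In Th17 cells its share was 0.0281% ± 0.020 in deficient and 0.105% ± 0.0089 in wild type (SD, n = 3 each).

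**Figure D4:**
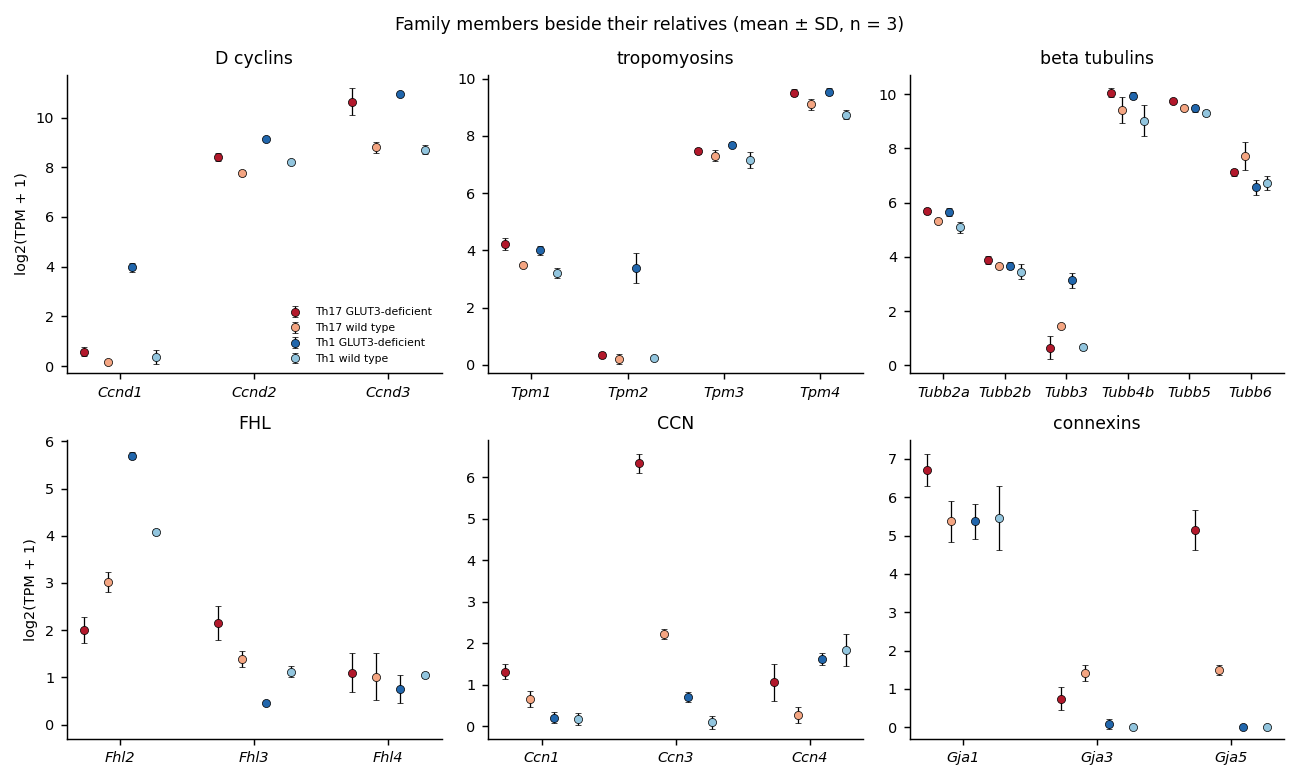
Mean log2(TPM + 1) ± SD (n = 3 per group) of genes from 6 protein families, with the 4 groups side by side for each gene. Ccnd1, Tpm2 and Tubb3 lie below their main relatives in every group (Tpm4 averages 424 to 747 TPM), whereas Fhl2 and Ccn3 are the most abundant of their families in deficient Th1 and deficient Th17 cells.

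Fhl2 in Th1 cells and Ccn3 in Th17 cells were, unlike Ccnd1, Tpm2 and Tubb3, the most abundant transcripts of their families. Fhl2 made up 97.6% ± 0.78 of FHL TPM in deficient and 87.5% ± 1.2 in wild-type Th1 cells, but 39.6% ± 3.9 in deficient and 72.2% ± 1.2 in wild-type Th17 cells (SD, n = 3 each). Fhl3 had 3.54 ± 1.18 TPM in deficient and 1.63 ± 0.30 TPM in wild-type Th17 cells and did not pass the test there (limma adjusted p = 0.132). Ccn3 made up 96.6% ± 1.5 of CCN TPM in deficient and 81.7% ± 8.3 in wild-type Th17 cells. The only other CCN gene tested in Th17 cells was Ccn1, at 1.51 ± 0.31 TPM in deficient and 0.590 ± 0.221 TPM in wild type (limma adjusted p = 0.0996). Limma and voom called 0 of 1 CCN relative in each lineage, with an unadjusted p under 0.05 for Ccn1 in Th17 cells, and 0 of 2 FHL relatives in Th17 cells (1 with an unadjusted p under 0.05).

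Among 20 connexin genes, only Gja1, which codes for connexin 43, had a higher mean than Gja5 in Th17 cells of either genotype. The share of Gja5 was 24.7% ± 4.4 in deficient and 4.21% ± 1.7 in wild-type cells (SD, n = 3 each). Gja1 averaged 107 ± 30.1 TPM in deficient and 42.4 ± 17.0 TPM in wild-type Th17 cells and missed the threshold (log2 difference 1.35, limma adjusted p = 0.0571). Among connexins and pannexins limma called 0 of 3 relatives in Th17 and 0 of 2 in Th1 cells (median log2 difference 0.05 and 0.10); 2 and 0 had an unadjusted p under 0.05, and voom called 2 and 0. Of 4 other phosphodiesterases of the Gdpd2 family tested, 1 fell in Th17 and 1 rose in Th1 cells (median log2 difference -0.66 and -0.44). Gdpd1 fell in deficient Th17 cells to 1.99 ± 0.27 TPM, against 5.92 ± 0.55 TPM in wild type (log2 difference -1.21, limma adjusted p = 0.0251), a call lost in 5 of 6 fits without 1 library. Gpcpd1 rose in deficient Th1 cells by 0.93 (adjusted p = 0.0147), a call lost without deficient replicate 1 or 3. The most abundant member, Gde1, passed in neither lineage (adjusted p = 0.0540 and 0.0518).

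Of the other genes of steroid synthesis, 1 of 9 rose in deficient Th17 cells and 3 of 9 in deficient Th1 cells, and none fell; the median log2 differences were 0.31 and 0.22. Hsd11b1, which regenerates active glucocorticoid, had 19.0 ± 4.42 TPM in deficient and 4.86 ± 1.16 TPM in wild-type Th1 cells (log2 difference 1.77, limma adjusted p = 0.00074). Hsd17b7 rose by 1.09 in Th1 cells (adjusted p = 0.00206) and by 1.11 in Th17 cells (adjusted p = 0.0340, 0.0514 with the replicate block, and up to 0.181 in the 5 of 6 fits without 1 library that lost the call), and Hsd3b7 rose by 1.06 in Th1 cells. Hsd17b7 and Hsd3b7 are known for cholesterol and bile acid synthesis as much as for steroid hormones. The electron donors of Cyp11a1, Fdx1 and Fdxr, averaged 32.0 and 25.1 TPM in deficient and 28.5 and 29.9 TPM in wild-type Th1 cells, and Star, the cholesterol carrier, stayed below 1 TPM on average in every group.

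Cyp11a1 is also counted among Th2 genes. Of the others, 1 of 5 rose in deficient Th17 cells, and 2 of 6 rose and 2 fell in deficient Th1 cells (median log2 difference 0.59 and 0.11). Il4 rose in deficient Th17 cells, at 46.3 ± 18.01 TPM against 6.01 ± 3.92 TPM in wild type (log2 difference 2.80, limma adjusted p = 0.0177, lost in 4 of 6 fits without 1 library). In Th1 cells Il24 and Il4 rose by 2.44 and 0.84, and the chemokine receptors Ccr4 and Ccr8 fell by 1.96 and 1.19 on the log2 scale, all kept in every fit without 1 library. Members of the list thus went in both directions in Th1 cells. Gata3, the master regulator of Th2 cells, averaged 9.10 ± 4.15 TPM in deficient and 3.47 ± 1.19 TPM in wild-type Th17 cells, and 3.64 ± 0.41 and 4.32 ± 2.49 TPM in deficient and wild-type Th1 cells.

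For Notch genes, partners of the Ccn3 protein in studies of other cells, 1 of 7 fell and 0 rose in deficient Th17 cells. Hey1 had 0.307 ± 0.225 TPM in deficient and 2.59 ± 0.60 TPM in wild type (log2 difference -1.46, limma adjusted p = 0.0147). Its call was kept in 1 of 3 fits without 1 library, and fits without a wild-type library did not test it. The median log2 difference of the Notch genes was 0.15 in Th17 and 0.31 in Th1 cells. In Th1 cells limma and voom each called 0 of 3 Notch genes, and 1 had an unadjusted p under 0.05. Of YAP and TEAD targets, to which Ccn1 and Ccn2 belong, limma called 0 of 9 in Th17 cells (5 with an unadjusted p under 0.05, 1 by voom). In Th1 cells 2 of 7 rose and 2 fell, and the median log2 difference was 0.92 in Th17 and -0.06 in Th1 cells. F3, tissue factor, reached 132 ± 49.95 TPM in deficient against 10.5 ± 1.48 TPM in wild-type Th1 cells (log2 difference 3.46, limma adjusted p = 0.00011). Axl rose by 1.35, and Ajuba and Gadd45a fell by 1.12 and 0.66 on the log2 scale; the Gadd45a call was lost in 4 of 6 fits without 1 library. Limma called 0 of 3 keratins in Th17 cells (2 with an unadjusted p under 0.05, 0 by voom) and 0 of 2 in Th1 cells (0 and 0), with median log2 differences of -0.68 and -0.22.

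Of 46 genes within 50 kb of the 10 genes, 19 could be tested in Th17 cells, where 1 rose and 1 fell, beside 4.60% and 2.70% of all tested genes. In Th1 cells 17 could be tested, of which 6 rose and 3 fell, beside 17.6% and 13.7% of all. Both tested neighbours of Cyp11a1 lie on its strand. Stra6, a retinol transporter gene 36762 bases away, had 4.64, 5.92 and 6.83 TPM in deficient and 0.734, 0.694 and 1.04 TPM in wild-type Th1 libraries (log2 difference 1.89, limma adjusted p = 0.000222). In Th17 cells it had 3.18, 9.73 and 1.40 TPM in deficient and 4.55, 7.42 and 7.23 TPM in wild-type libraries. The Th17 groups overlapped, and the test was not passed (log2 difference -0.61, adjusted p = 0.516). The interaction for Stra6 was not called by limma (-2.50, adjusted p = 0.118) and was called by voom.

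Sema7a, which codes for a semaphorin anchored in the membrane and lies 35159 bases from Cyp11a1, was higher in deficient cells of both lineages. It had 25.3, 22.4 and 28.2 TPM in deficient against 2.99, 1.96 and 2.03 TPM in wild-type Th1 libraries (log2 difference 2.99, limma adjusted p = 3.29e-05). In Th17 cells it had 7.70, 26.1 and 5.81 TPM in deficient against 0.767, 0.527 and 0.262 TPM in wild-type libraries (2.96, limma adjusted p = 0.020). This call was lost in all 3 fits without 1 wild-type library, and fits without a deficient library did not test the gene. It was also lost with a pseudocount of 5 TPM and with no filter. The Th17 difference of Sema7a was thus opposite in sign to that of Cyp11a1. Beside Tpm2, Sit1, which codes for a signalling adaptor of lymphocytes, fell in deficient Th17 cells by 1.64 on the log2 scale (adjusted p = 0.0125, lost without deficient replicate 1 or wild-type replicate 2 or 3). In Th1 cells, where Tpm2 was high in deficient libraries, Arhgef39, 4979 bases from Tpm2 on its strand, had 24.3, 24.8 and 25.2 TPM in deficient and 4.29, 11.1 and 8.13 TPM in wild-type libraries (log2 difference 1.62, limma adjusted p = 0.00259, kept in 6 of 6 fits without 1 library). Creb3 and Gba2 rose there by 0.52 and 0.64 (calls lost in 5 and 4 of 6 such fits), and Ccdc107 fell by 0.84 on the log2 scale (kept in 6 of 6). Neighbours of Tpm2 thus went in both directions.

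**Figure D5:**
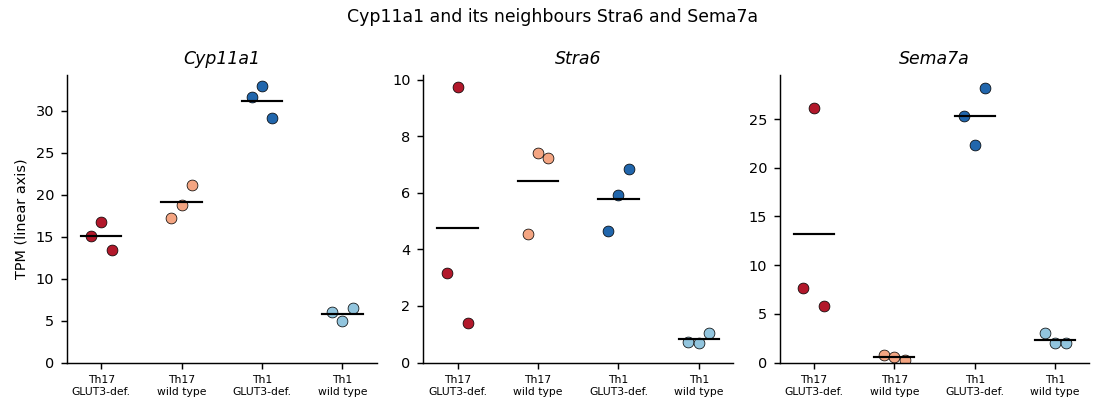
Level in TPM on linear axes starting at 0 of Cyp11a1, Stra6 and Sema7a in each library (points) with the group mean (bars, n = 3). In Th1 cells the deficient libraries of all 3 genes lie above wild type, and in Th17 cells Cyp11a1 lies below wild type, Stra6 overlaps it and Sema7a lies above it.

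Markers of other cells moved with the genotype, and in bulk RNA fewer cells of a type and less RNA per cell cannot be told apart. The counts of markers, here and below, stand beside shares of all tested genes of 4.60% higher and 2.70% lower in deficient Th17 cells. In deficient Th1 cells these shares were 17.6% and 13.7%. Of 7 gamma delta T cell markers, 4 of the 5 tested rose in deficient Th17 and 5 of 5 in deficient Th1 cells. Their summed level was 167 to 262 TPM in deficient and 17.5 to 21.1 TPM in wild-type Th17 libraries, and 174 to 278 TPM in deficient and 15.0 to 33.7 TPM in wild-type Th1 libraries, with no marker at 0 in a group. Of 10 fibroblast and endothelium markers, 1 of 2 tested rose in deficient Th17 and 3 of 3 in deficient Th1 cells. Their sums were 22.5 to 77.4 TPM in deficient and 9.55 to 23.5 TPM in wild-type Th17 libraries, and 20.9 to 23.2 TPM in deficient and 8.41 to 12.9 TPM in wild-type Th1 libraries. The calls of Lum in Th17 cells and of Pecam1 in Th1 cells were each lost in 5 of 6 fits without 1 library. Col3a1 and the endothelial cadherin Cdh5 were listed at 0 in all 12 libraries. Of 8 red cell and platelet markers, 2 of 5 tested rose in each lineage, with sums of 44.5 to 114 TPM in deficient and 8.26 to 17.2 TPM in wild-type Th17 libraries and of 59.7 to 192 TPM in deficient and 12.1 to 25.3 TPM in wild-type Th1 libraries. Both that rose were platelet markers, Pf4 and Ppbp, and their Th17 calls were lost in 2 and 4 of 6 fits without 1 library. The globin genes Hbb-bs, Hba-a1 and Hba-a2 were called in neither lineage (limma adjusted p at least 0.0528).

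The other marker lists gave the following counts and sums. Of 10 myeloid markers, 3 of 6 tested rose in deficient Th17 and 2 of 4 in deficient Th1 cells; the sums were 412 to 595 TPM in deficient and 458 to 507 TPM in wild-type Th17 libraries, and 383 to 455 TPM in deficient and 323 to 414 TPM in wild-type Th1 libraries. These sums are mostly Cst3, at 469 TPM in deficient and 464 TPM in wild-type Th17 cells. The markers that rose in Th17 cells were Lyz2 (16.4 TPM in deficient and 2.96 TPM in wild type), Tyrobp (6.80 and 0.918 TPM) and Fcer1g (22.0 and 4.57 TPM), with log2 differences of 2.08, 2.02 and 2.08 and calls lost in 4, 2 and 3 of 6 fits without 1 library. Tyrobp and Fcer1g also rose in Th1 cells, by 1.44 and 1.74. Of 8 CD8 and NK cell markers, 2 of 6 rose in Th17 cells, and 4 of 6 rose and 2 fell in Th1 cells, with sums of 90.7 to 108 TPM in deficient and 49.1 to 64.2 TPM in wild-type Th17 and of 195 to 283 TPM in deficient and 62.1 to 78.5 TPM in wild-type Th1 libraries. Klrk1 and Klrc1 rose in both lineages, and Klrd1 and Eomes were called in Th1 cells only. The Th17 calls of Klrk1 and Klrc1 were lost in 2 and 4 of 6 fits without 1 library. The markers that fell in Th1 cells were Cd8a and Cd8b1 (log2 differences -0.90 and -0.76), so the CD8 genes went against the sum there. Of 7 B cell markers 1 of 5 rose in Th17 cells, and in Th1 cells limma and voom each called 0 of 5, with 2 at an unadjusted p under 0.05; the sums were 132 to 198 TPM in deficient and 114 to 153 TPM in wild-type Th17 libraries, and 68.3 to 475 TPM in deficient and 88.1 to 112 TPM in wild-type Th1 libraries. The B cell marker that rose in Th17 cells was Igkc, a call lost in 4 of 6 fits without 1 library and with voom. Adgre1 was listed at 0 in wild type of both lineages and Csf1r in wild-type Th1 cells. Of 8 CD4 T cell markers, 1 of 8 tested rose in Th17 cells (Cd28, log2 difference 1.09, lost in 4 of 6 fits without 1 library) and 5 of 8 in Th1 cells (by 0.37 to 0.69, with the calls of Cd3e and Trbc2 each lost in 5 of 6 such fits), and none fell. They summed to 7803 to 10943 TPM in deficient and 7462 to 8816 TPM in wild-type Th17 libraries, which overlapped, and to 9945 to 10851 TPM in deficient and 7304 to 8200.4 TPM in wild-type Th1 libraries, which did not. The part of these other cells in the differences of the 10 genes was not tested.

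The summed Th17 markers were higher in Th17 than in Th1 libraries, and the summed Th1 markers higher in Th1 libraries. The 7 Th17 markers summed to 497 to 677 TPM in deficient and 668 to 1194 TPM in wild-type Th17 libraries, and to 65.3 to 141 TPM in deficient and 27.0 to 29.3 TPM in wild-type Th1 libraries. The 6 Th1 markers summed to 130 to 430 TPM in deficient and 86.7 to 147 TPM in wild-type Th17 libraries, and to 7349 to 9236 TPM in deficient and 841 to 1420 TPM in wild-type Th1 libraries. Of the Th17 markers 1 of 7 rose in deficient Th17 cells, and 4 of 7 rose and 2 fell in deficient Th1 cells. Of the Th1 markers 2 of 6 rose in deficient Th17 cells, and 4 of 6 rose and 1 fell in deficient Th1 cells. The calls of the Th17 marker Ccr6 in Th1 cells and the Th1 marker Il18r1 in Th17 cells were each lost in 5 of 6 fits without 1 library. The Th1 marker sum is mostly Ifng, at 7977 TPM in deficient and 778 TPM in wild-type Th1 cells (log2 difference 3.43), and the marker that fell was Cxcr3, at 20.6 TPM in deficient and 60.4 TPM in wild-type Th1 cells (-1.45, limma adjusted p = 0.00329). The sum of Th1 markers was thus higher in all deficient than in all wild-type Th1 libraries, in the lineage in which Ccnd1, Tpm2, Cyp11a1, Fhl2 and Tubb3 were higher; their part in those differences was not tested.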

How the data were processed

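Total RNA (5 ng) was made into cDNA with SMART-Seq v4, tagged with Nextera XT and sequenced as single reads of 75 nt without strand, per the labels' protocols. Tools named, without roles, in the submitters' processing notes are STAR 2.7.2b, featureCounts 1.6.4, DESeq2 1.24.0, cutadapt and bcl2fastq 2.20.0.422, with the build GRCm38.p6. The authors deposited a table of TPM per lineage, per the file headers, with decimal commas and 45703 genes; each library sums to 1000000 TPM. Gene starts equal those of RefSeq GRCm38.p6 for 45701 genes, and coordinates are in that build.

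TPM times exon length gave whole reads within 0.02 for 100% of values in every library, and totals of 16596283 to 28496606 reads. A gene of 1 kb with 3 reads would stand at 0.190 to 0.437 TPM; this floor and all read counts carry counting error alone, as PCR duplicates were not told apart by molecular tags. Replicates of a group differed beyond sampling noise (chi-square per gene at least 13.1).

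A gene entered a fit if 3 of its libraries reached 1 TPM, and limma 3.58.1 (R 4.3.3) was run on log2(TPM + 1) (trend, two-sided, Benjamini-Hochberg, threshold 0.05). Genotypes were compared within each lineage (6 libraries), and the interaction over 4 group means (12 libraries). Standard errors of the 10 genes are those of a difference of 2 means, except where the limma fit is named. Fold changes on this scale understate low genes. The deviations of same-numbered deficient and wild-type libraries correlated at r = 0.14, 0.43 and 0.24 in Th17 cells, and those of differently numbered ones at -0.43 to 0.11. In Th1 cells the values were 0.19, 0.24 and -0.07, against -0.33 to 0.17. These values do not settle whether the numbers mark pairs, and the main fits took no account of pairing. Alternatives were pseudocounts of 0.1 and 5 TPM, no filter, median-of-ratios scaling, a replicate block, voom on the recovered reads and leaving out each library. The steps were also run on simulated reads. Those had the same relative spread for all genes and no library standing apart, unlike these libraries. Nothing is therefore read from them about the calls given here.

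The 10 genes and all lists were chosen with earlier results of these data known. Named beside them are family members that passed a test (up to 6 per list, smallest adjusted p first), paralogs, genes within 50 kb, the 3 genes of highest correlation and Slc2a3; Cdkn1a, Cdkn1b, Cdkn2d, E2f2, single markers of other or lineage cell types, Gata3, Fdx1, Fdxr and Star were named after their values were seen. Shared windows were read from GENCODE M21 transcripts.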

Additional observations from a re-analysis of the deposited data

Results flagged for a closer look

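For 3 genes every deficient library lay below every wild-type library in Th17 cells and above every one in Th1 cells. Of all tested genes, 18.2% were apart with deficient lower in Th17 cells and 26.3% with deficient higher in Th1 cells. The log2(TPM + 1) difference, GLUT3-deficient minus wild type, was -0.32 (SE 0.12, and 0.23 in the limma fit) in Th17 and 2.24 (SE 0.11) in Th1 cells for Cyp11a1. For Fhl2 it was -1.005 (SE 0.20) in Th17 and 1.62 (SE 0.05) in Th1 cells. For Tubb3 it was -0.81 (SE 0.24) in Th17 and 2.46 (SE 0.18) in Th1 cells, where only its 3 deficient libraries reached 1 TPM. The genes had been picked for this contrast, so the difference between the lineages was not tested. Tubb3 in Th17 cells rests on 5 to 13 reads per deficient and 33 to 38 reads per wild-type library.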

How the results depend on the processing

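No difference of the 10 genes changed sign under any setting run. Of 171 values that left out 1 library, 170 moved by less than 1 SD of a library in the limma fit. Leaving out 1 of 3 libraries moves a group mean by less than the SD of that group, so nothing is read from this. Gdpd2 and Lrrc31 in Th17 cells and Ccnd1, Tpm2 and Tubb3 in Th1 cells had no such fit without a deficient library. Fewer than 3 of their libraries then reached 1 TPM. Of 138 values under other settings, 58 moved by more than 1 SD, chiefly with the pseudocount and voom. Lrrc31 in Th17 cells ranged over 0.93 to 5.96, Gdpd2 over 1.32 to 5.40, Tpm2 in Th1 cells over 1.49 to 5.43, Ccnd1 over 1.89 to 5.75, Tubb3 over 1.19 to 3.57, and in Th17 cells Tubb3 over -1.99 to -0.27, Krt83 over -3.89 to -1.99 and Fhl2 over -1.36 to -0.59.

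Genes called numbered 1009 in Th17 cells, 4220 in Th1 cells and 93 for the interaction. Leaving out 1 library gave 109 to 2158, 2594 to 4587 and 21 to 171; the 2158 and 171 came without deficient Th17 replicate 2. A pseudocount of 0.1 TPM left 44 interaction calls. With the replicate block the counts were 1399, 4479 and 85. Among named relatives and neighbours the block ended the calls of Cnn2 and Hsd17b7 in Th17 cells and of Actb in Th1 cells. With voom the share of higher calls was 46.7% in Th1 cells (56.3% with limma) and 71.2% for the interaction (54.8%); the causes were not tested. Of 1314 values of other called genes, 225 lost their call and none changed sign. With 3 libraries a group and under 40 reads, the low values of Gdpd2, Lrrc31, Tubb3, Ccnd1 and Tpm2 are limited by depth.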
